A study of Homo sapiens with 12 samples.

Results

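Activation of FoxO3 was measured against an empty vector in 2 established cell lines from human kidney cancer, RCC4 and UMRC2, both without a working VHL tumour suppressor. The arrays were chosen by their labels alone: 8 of the 12 arrays of the series come from FoxO3 cells or empty vector cells, and the other 4 come from FoxO1 cells. FoxO3 cells stably carried FoxO3(TA)-ERT2, a FoxO3 whose 3 AKT phosphorylation sites had been changed to alanine, joined to the T2-modified hormone-binding part of the estrogen receptor. Empty vector (EV) cells carried ERT2 alone. Both kinds of cell were kept in DMEM with 10% serum and puromycin and were treated for 12 h with 100 nM 4-hydroxytamoxifen (4OHT), which moves the fusion from the cytoplasm into the nucleus, or with ethanol as vehicle. Each combination of line, construct and treatment had 1 array made from the total RNA of a single plate, so no group had a replicate, which limits the precision. The labels do not say whether a stable line is 1 clone or a pool.

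FoxO3 is a forkhead transcription factor. Under growth factors the PI3K-AKT pathway phosphorylates it, and it is held in the cytoplasm. When AKT is quiet FoxO3 enters the nucleus, binds the letters GTAAACA and switches on genes for cell cycle arrest, cell death, stress defence and autophagy, and genes that restore insulin and growth factor signalling. The series gives both kidney cancer lines as poor in endogenous FoxO1 and FoxO3, and asked which transcripts FoxO controls there at a time before arrest or death is visible.

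All levels below are log2 of quantile-normalised intensity, with a floor at 4.20 under which values were not ordered. A change that uses an array at the floor is therefore not exact. The response is the level with 4OHT minus the level with vehicle. The change is the FoxO3 response minus the EV response of the same line, averaged over the 2 lines and given with its standard error from limma (n = 2 lines). A gene is called higher or lower when its limma p, adjusted over all 14282 genes tested, is under 0.05. Since the lines are the replicates, a p-value here sets a change against a spread that includes the one between RCC4 and UMRC2 and array noise. It says nothing of repeat cultures. By limma that spread is drawn in part from other genes of similar level (5.43 prior against 2 residual degrees of freedom), and from the FoxO1 pairs. A called gene can therefore differ much in size between the 2 lines. Where levels are listed, the first of each pair of values is vehicle and the second is 4OHT.

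The fusion was visible through its estrogen receptor part. Of 9 ESR1 probe sets, 5 stood at least log2 2 above EV in both lines without 4OHT, with a median of 12.49 and 12.10 in RCC4 FoxO3 cells and 13.23 and 12.56 in UMRC2 FoxO3 cells. The EV medians were 5.28 and 5.24 in RCC4 and 4.63 and 5.79 in UMRC2. The EV cells thus showed little ESR1 signal although their label names ERT2, and an effect of 4OHT through ERT2 itself was not tested. The 3 bright FOXO3 probe sets read 8.85 to 10.38 in RCC4 EV cells and 9.32 to 11.65 in UMRC2 EV cells with vehicle, above the array median. They were no higher in RCC4 FoxO3 cells than in RCC4 EV cells without 4OHT. Their changes were 0.78 to 1.07 in RCC4 and -1.06 to -0.75 in UMRC2. FOXO1 read 6.46 and 6.36 in RCC4 EV cells, 7.09 and 8.94 in RCC4 FoxO3 cells, 6.78 and 7.53 in UMRC2 EV cells, and 7.43 and 8.30 in UMRC2 FoxO3 cells, a change of 1.04 ± 0.57 that was not called (adjusted p = 0.272). Its other bright probe set gave 4.79 in RCC4 and 1.73 in UMRC2.

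The label was checked on lineage genes. PAX8, the kidney lineage factor, lay between 11.17 and 12.58 in all 8 arrays. The leukocyte genes CD14 and NKG7 and the endothelial gene CDH5 were at the floor in all 8, while the endothelial gene PECAM1 (8.24 to 8.75) and the fibroblast genes COL1A1 (9.22 to 9.74) and DCN (7.70 to 9.14) were above the array median in all 8 and none of the 3 was called. Of 8 renal lineage markers PAX8 and CDH16 were above the array median in all 8 arrays, PAX2, CDH6 and GATA3 in 7, EMX2 in 5, WT1 in 4 and LHX1 in 0. Their summed level was 11.62 to 13.82, lowest of each line in the FoxO3 array with 4OHT (11.62 in RCC4 and 12.53 in UMRC2). In all, 1 of 6 leukocyte, 1 of 6 endothelial and 2 of 7 fibroblast markers were above the median in all 8 arrays. The summed levels of these 3 groups were 8.70 to 9.17, 8.89 to 9.50 and 9.91 to 10.63, the last highest in the UMRC2 FoxO3 array with 4OHT, and their part in the results was not tested. As deposited, the arrays fell on 2 signal levels: the spike-in controls averaged 4212 to 4699 in 5 RCC4 arrays and 2239 to 2515 in the UMRC2 arrays and in the RCC4 FoxO3 array with 4OHT. The RCC4 FoxO3 pair therefore spans both levels and the UMRC2 pairs lie within one, so UMRC2 values are given beside RCC4 values for many of the genes and in the plots. The ratio of 3-prime to 5-prime signal, a sign of RNA quality, was 0.917 to 1.05 with GAPDH probe sets and 1.09 to 1.27 with ACTB probe sets.

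Many genes were called in either direction. By limma 944 genes were higher (6.61% of those tested) and 1433 lower (10.0%), together 16.6%. The median change was 1.32 among the higher genes and -1.18 among the lower. At least 4-fold changes were found for 192 higher and 178 lower genes, and at least 8-fold changes for 64 and 22. In 742 of the 944 higher genes both FoxO3 arrays with 4OHT lay above all 6 other arrays, and in 1126 of the 1433 lower genes they lay below them. Without 4OHT, no called gene was already at least 2-fold apart in the called direction between FoxO3 and EV cells in both lines (0 of 944 and 0 of 1433). The change subtracts this vehicle gap, so these counts of 0 follow in part from the call, and activity without 4OHT was not tested. The counts of genes outside the 6 other arrays follow in part from the call as well.

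The response of FoxO3 cells was itself positive in both lines for 942 of the 944 higher genes and negative in both for all 1433 lower genes. Genes were called on this response minus that of EV cells, so these signs are fixed in part by the call. Only 31 higher genes had an EV response at least 2-fold down in a line, and 29 lower genes had one at least 2-fold up. EV cells did respond to 4OHT, with 741 genes at least 2-fold changed in RCC4 and 792 in UMRC2, but these responses were unrelated across genes in the 2 lines (Pearson r = 0.02 over 14282 genes, which are not independent replicates). FoxO3 cells had 3150 and 2795 such genes, with r = 0.55.

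The call sets a change against a spread that includes the one between the lines, so that called genes agree in sign is fixed in part by the call. Over all 14282 genes tested, 9615 (67.3%) had the same sign in RCC4 and UMRC2. At a 2-fold limit with no test, 673 genes were up in both lines (4.71% of genes tested, 40.7% of those up in RCC4 and 42.4% of those up in UMRC2) and 891 were down in both (6.24%, or 43.2% and 45.5%). In 138 genes RCC4 was up and UMRC2 down by that much, and in 163 genes the reverse was seen. Across all genes the changes of the 2 lines had r = 0.44 and a Spearman rho of 0.46.

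**Figure D1:**
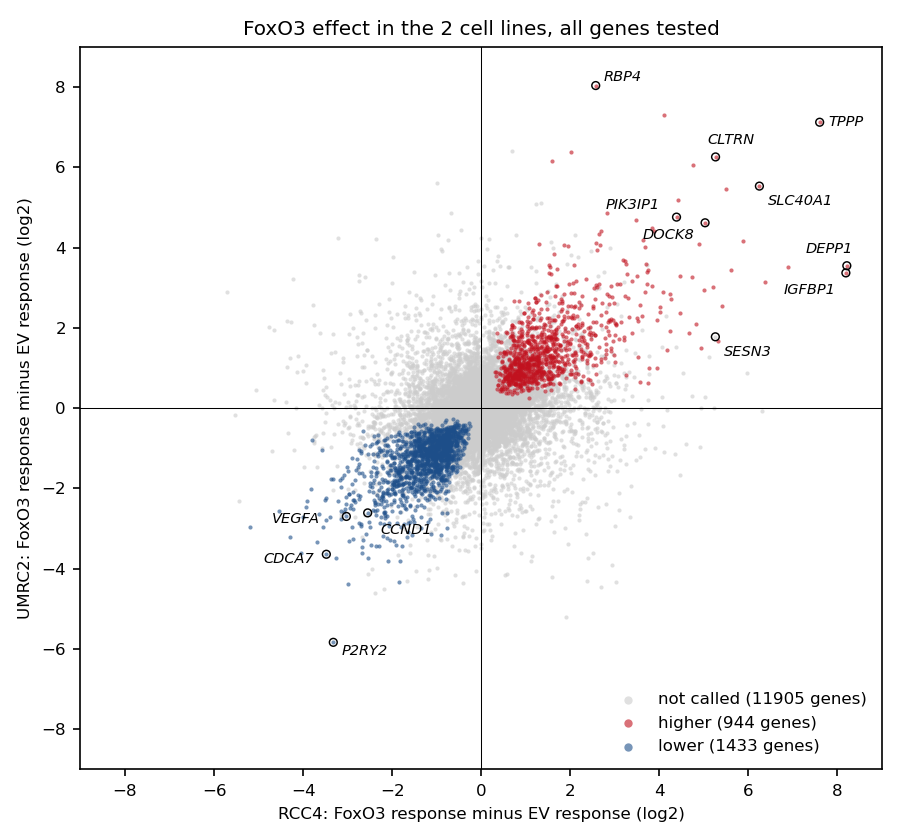
Change (FoxO3 response minus EV response, log2) in RCC4 on the x axis and in UMRC2 on the y axis for the 14282 genes tested, each point 1 gene, coloured by the limma call. The 944 higher genes lie in the upper right and the 1433 lower genes in the lower left, and the genes far from the diagonal, such as SESN3, are mostly not called.

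Fits were repeated with each pair left out. Without an EV or FoxO3 pair, the changes also depend on the FoxO1 pairs, through the difference between the lines. The count of calls depended on a few choices. It was 1455 without the RCC4 EV pair, or 1156 if the UMRC2 EV pair was left out, against 1742 without the RCC4 FoxO3 pair that spans both signal levels. It was 0 when dim genes were not filtered out and 0 with a constant prior variance in limma, where 4290 and 3699 genes had an unadjusted p under 0.05 (4317 in the fit reported here). The filter asked for the array median in at least 2 arrays. Of the higher genes, 17 were under it in the 6 other arrays and above it in both FoxO3 arrays with 4OHT. Among the 8 arrays these 17, such as SLC40A1, reached the median only where they are high. On the values as deposited, whose median change was -0.42 against -0.07 after normalisation, 126 genes were higher and 453 lower, so 21.8% of the calls were higher in place of 39.7%. Of 127 called genes that the naming rule gives, 31 lost their call on the values as deposited, 25 of 124 when a gene's probe sets were averaged, 2 with the probe set of highest median and 11 without the replicate block of cell line. With the array median asked for in 4 of the 8 arrays, 117 of the 127 were still tested and 0 of those lost their call. Genes just inside the threshold were NEDD4 (0.76) and ENY2 (0.47), and just outside it lay IST1 (0.53) and SNX29 (0.94).

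The strongest inductions were a mixed group of secreted, membrane and signalling genes. TPPP, which promotes the polymerisation of tubulin, had the largest change of all with the floor in place. TPPP read 6.25 and 4.75 in RCC4 EV cells, 6.86 and 12.96 in RCC4 FoxO3 cells, 5.47 and 4.20 in UMRC2 EV cells, and 5.49 and 11.34 in UMRC2 FoxO3 cells. Both FoxO3 arrays with 4OHT stood far above the other 6, and the change was 7.36 ± 0.55, or 165-fold (adjusted p = 0.00103). The UMRC2 EV array with 4OHT was at the floor, so the change and its fold are lower bounds. The EV response of TPPP was downward (-1.5 in RCC4 and -1.27 in UMRC2), so its change exceeds its own induction in FoxO3 cells. TPPP gave 4.35 (still called) with all probe sets averaged.

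SLC40A1, the ferroportin that exports iron from cells, read 6.27 and 6.24 in RCC4 EV cells, 6.28 and 12.50 in RCC4 FoxO3 cells, 6.45 and 6.57 in UMRC2 EV cells, and 6.61 and 12.26 in UMRC2 FoxO3 cells. The 6 other arrays lay between 6.24 and 6.61, all under the array median, and the change was 5.89 ± 0.50 (59.3-fold, adjusted p = 0.00147). CLTRN, collectrin, a kidney membrane protein that carries amino acid transporters to the cell surface, read 7.81 and 7.58 in RCC4 EV cells, 7.35 and 12.39 in RCC4 FoxO3 cells, 5.29 and 4.46 in UMRC2 EV cells, and 4.95 and 10.38 in UMRC2 FoxO3 cells. It rose in both lines from different starting levels, by 5.26 in RCC4 and 6.26 in UMRC2 (5.76 ± 0.38, adjusted p = 0.00103). DOCK8, an exchange factor for the small GTPase CDC42, read 8.87 and 8.59 in RCC4 EV cells, 8.47 and 13.22 in RCC4 FoxO3 cells, 6.11 and 6.63 in UMRC2 EV cells, and 5.68 and 10.82 in UMRC2 FoxO3 cells. Its change was 4.82 ± 0.28 (adjusted p = 0.00103), with the same sign in its 3 other bright probe sets. SLC40A1 gave 3.46 (still called) when probe sets were averaged. SLC40A1 gave 1.03 (adjusted p = 0.139, not called) with the probe set of highest median.

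PIK3IP1, a membrane inhibitor of PI3K, read 7.89 and 7.78 in RCC4 EV cells, 8.01 and 12.29 in RCC4 FoxO3 cells, 7.86 and 7.22 in UMRC2 EV cells, and 8.51 and 12.63 in UMRC2 FoxO3 cells. The FoxO3 arrays without 4OHT lay just above the EV arrays, and the change was 4.57 ± 0.42 (23.8-fold, adjusted p = 0.0015). CCN2, a matricellular growth factor of the YAP programme, changed by 4.42 in RCC4 and 5.18 in UMRC2 (adjusted p = 0.00514). Of 14 CCN family and YAP target genes, 3 were higher (21.4%, against 6.61% over all genes) and 1 lower (7.14%, against 10.0%). Their median was -0.05, and as deposited 1 was higher and 1 lower. MAP3K7CL changed by 5.49 in RCC4 and 5.45 in UMRC2 (adjusted p = 0.0015) and OLFML2B, an extracellular matrix protein, by 4.11 in RCC4 and 7.30 in UMRC2 (adjusted p = 0.00458). FILNC1, a long non-coding RNA, gave 5.88 in RCC4 and 4.16 in UMRC2 (adjusted p = 0.0049).

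DEPP1, a FoxO-induced regulator of autophagy and peroxisomes, read 4.30 and 5.14 in RCC4 EV cells, 4.20 and 13.25 in RCC4 FoxO3 cells, 10.15 and 10.36 in UMRC2 EV cells, and 10.35 and 14.10 in UMRC2 FoxO3 cells. In RCC4 FoxO3 cells it went up from the floor, while UMRC2 cells already had it well above the array median without active FoxO3. The change was 5.88 ± 0.89 (adjusted p = 0.00545), or 8.21 in RCC4 and 3.55 in UMRC2. Because of the floor, the RCC4 value and the mean are lower bounds. It also ranks first among the called genes that hold the forkhead letters in the single promoter window listed for them. DEPP1 was not called without the replicate block (adjusted p = 0.0524).

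The inductions of 5 more of the 15 largest rested on particular pairs. IGFBP1, a classical FoxO target whose secreted protein binds insulin-like growth factors, read 4.20 and 5.61 in RCC4 EV cells, 5.03 and 14.63 in RCC4 FoxO3 cells, 4.99 and 4.62 in UMRC2 EV cells, and 4.20 and 7.21 in UMRC2 FoxO3 cells. It was high in RCC4 FoxO3 cells with 4OHT and lower in the UMRC2 array (5.78 ± 1.43, adjusted p = 0.032). RBP4, the retinol carrier, was at the floor in the 6 other arrays and reached 6.78 in RCC4 and 12.24 in UMRC2. Its changes of 2.57 in RCC4 and 8.04 in UMRC2 (adjusted p = 0.0442) are not exact. The rise in FoxO3 cells is a lower bound, but an EV response under the floor cannot be read. RAI2 (5.4), EPB41L4A-DT (5.19) and SLC22A16, a carnitine transporter (4.76), completed the group. IGFBP1 missed the threshold without the RCC4 EV or RCC4 FoxO3 pair (adjusted p = 0.0975 to 0.103), with a change of 2.80 without RCC4 EV and 8.76 without UMRC2 EV. RBP4 lost its call without the UMRC2 EV or UMRC2 FoxO3 pair (adjusted p = 0.172 to 0.231), with a change of 8.12 without RCC4 EV and 2.49 without UMRC2 EV. RAI2 no longer passed without the UMRC2 EV pair (adjusted p = 0.0768). EPB41L4A-DT fell short of the threshold without the RCC4 EV, RCC4 FoxO3 or UMRC2 EV pair (adjusted p = 0.0577 to 0.0809), with a change of 3.06 without RCC4 FoxO3. SLC22A16 missed the threshold without the RCC4 EV or RCC4 FoxO3 pair (adjusted p = 0.107 to 0.12). IGFBP1 gave 3.10 (adjusted p = 0.143, not called) and RBP4 gave 2.65 (adjusted p = 0.222, not called) with all probe sets averaged. SLC22A16 gave 3.53 (adjusted p = 0.0646, not called) with the probe set of highest median. IGFBP1 and RBP4 were not called without the replicate block (adjusted p = 0.16 to 0.253).

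**Figure D2:**
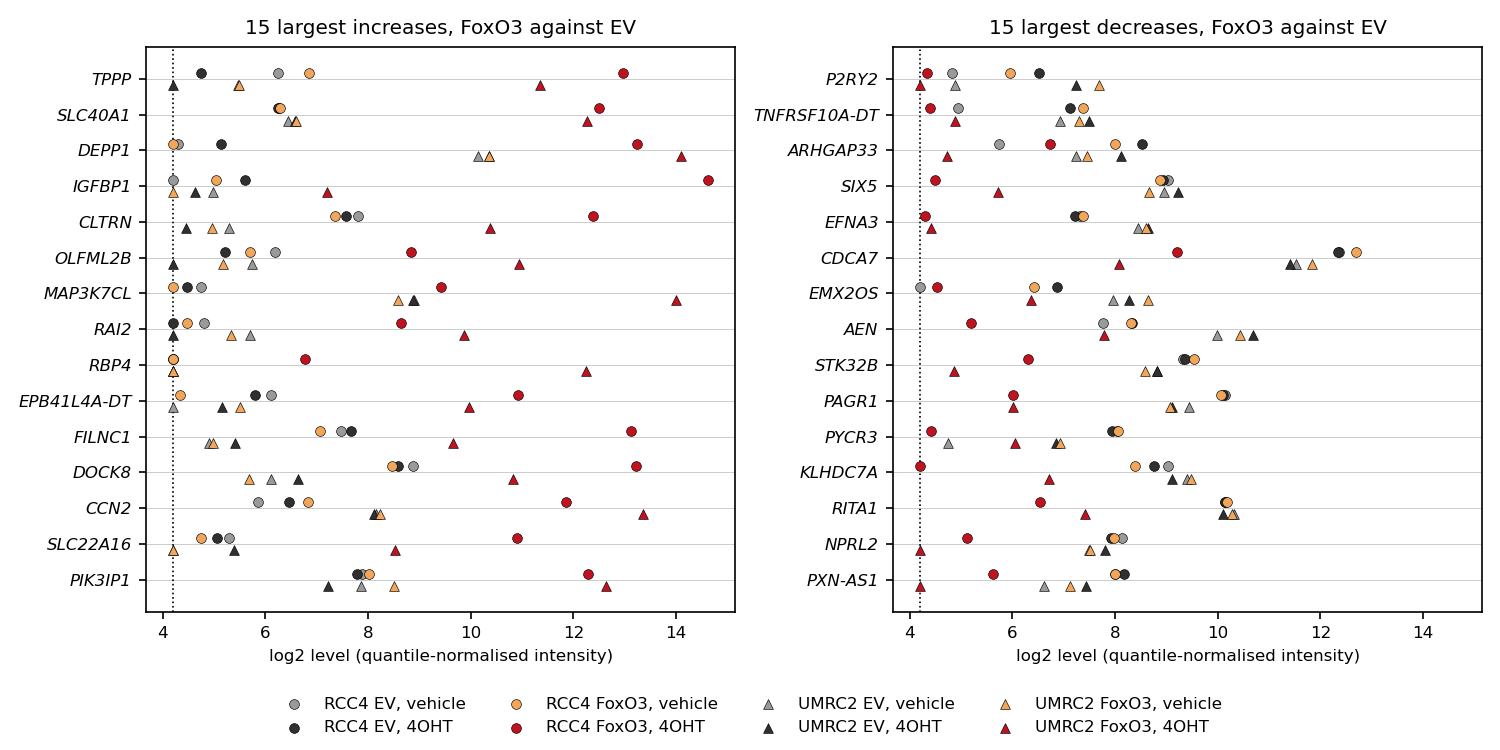
Log2 level in each of the 8 arrays (circles RCC4, triangles UMRC2, grey and black EV, orange and red FoxO3) for the 15 genes with the largest called increases and the 15 with the largest called decreases. The dotted line is the floor at 4.20. The red points, FoxO3 with 4OHT, stand to the right of the other arrays of their line for all genes of the left panel, and to the left on the right panel except for ARHGAP33 and EMX2OS in RCC4 and PYCR3 in UMRC2.

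Promoter windows were read for the called genes because forkhead factors share a short binding sequence. The windows run from 250 bases before to 50 bases after the start of a transcript (RefSeq, GRCh38.p14), and 11454 of the 14282 genes tested had at least 1. GTAAACA, on either strand, was found in 5.23% of 1262 windows of higher genes, in 1.90% of 1739 windows of lower genes and in 2.65% of 13502 windows of genes not called. Over all genes tested the share was 2.77%, and over all 35116 windows of the table it was 3.42%. Among higher genes changed at least 4-fold it was 7.79% of 244 windows. CAAAACA, the second form searched, gave 6.34%, 2.82%, 3.54%, 3.68% and 4.92% for higher, lower, not called, tested and all windows in that order. These shares are descriptions with no test, and windows of 1 gene can overlap.

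Below are the windows of 4 genes with large called increases that have a single window, which holds GTAAACA. The window of BTG1, the antiproliferative FoxO target described next, is given too. The 4 are not a full ranking: PIK3IP1, with a change of 4.57, also holds GTAAACA and is not printed. The printed genes were chosen after the values were seen, and capitals mark GTAAACA or its reverse complement TGTTTAC. DEPP1 (chr10:44978760-44979059, minus strand) holds it 180 to 174 bases before the start. GRAMD1C (chr3:113897250-113897549, plus strand), a sterol-binding membrane protein with a change of 4.14, holds it 70 to 64 bases before the start on the opposite strand. YPEL3 (chr16:30096164-30096463, minus strand), with a change of 3.97, has it at the first base of the transcript. TMEM140 (chr7:135147822-135148121, plus strand), with a change of 3.88, has it 106 bases before and 8 bases after the start, both on the opposite strand. BTG1 (chr12:92145797-92146096, minus strand) holds it 209 to 203 bases before the start on the opposite strand.
DEPP1: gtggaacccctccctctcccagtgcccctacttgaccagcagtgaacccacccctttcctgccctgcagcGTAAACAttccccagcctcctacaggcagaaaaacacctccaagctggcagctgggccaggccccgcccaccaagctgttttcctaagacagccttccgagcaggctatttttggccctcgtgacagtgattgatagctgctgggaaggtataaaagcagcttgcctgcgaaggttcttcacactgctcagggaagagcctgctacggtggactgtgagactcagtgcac
GRAMD1C: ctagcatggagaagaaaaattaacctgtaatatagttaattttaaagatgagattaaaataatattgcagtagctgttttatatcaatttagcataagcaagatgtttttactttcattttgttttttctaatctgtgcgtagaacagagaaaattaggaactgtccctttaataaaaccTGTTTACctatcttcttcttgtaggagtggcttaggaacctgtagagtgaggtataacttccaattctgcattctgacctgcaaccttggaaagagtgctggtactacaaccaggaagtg
YPEL3: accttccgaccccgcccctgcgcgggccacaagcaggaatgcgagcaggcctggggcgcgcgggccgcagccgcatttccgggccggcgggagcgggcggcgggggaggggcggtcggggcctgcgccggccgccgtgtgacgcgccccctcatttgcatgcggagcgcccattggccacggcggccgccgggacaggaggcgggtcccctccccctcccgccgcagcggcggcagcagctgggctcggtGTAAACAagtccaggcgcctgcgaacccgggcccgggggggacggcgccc
TMEM140: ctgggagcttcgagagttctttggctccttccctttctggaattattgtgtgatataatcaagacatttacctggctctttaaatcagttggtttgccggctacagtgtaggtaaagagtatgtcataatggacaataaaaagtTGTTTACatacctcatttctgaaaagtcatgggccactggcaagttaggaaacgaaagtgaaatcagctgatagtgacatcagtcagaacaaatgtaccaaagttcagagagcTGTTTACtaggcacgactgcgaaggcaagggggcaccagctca
BTG1: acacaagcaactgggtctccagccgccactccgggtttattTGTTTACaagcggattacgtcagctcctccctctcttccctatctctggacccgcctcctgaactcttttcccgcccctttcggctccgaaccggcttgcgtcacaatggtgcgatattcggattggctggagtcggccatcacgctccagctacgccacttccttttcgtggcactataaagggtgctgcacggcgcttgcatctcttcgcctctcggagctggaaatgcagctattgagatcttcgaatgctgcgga
A match says that these letters are in the window and nothing about binding. Of the 70 FoxO target genes with a window in the lists that follow, 10 hold GTAAACA and 6 hold CAAAACA. These are counts of genes and cannot be set against the shares of windows above. Counted by gene, GTAAACA is held by 61 of 789 higher genes and 31 of 1183 lower genes with a window.

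Of 15 FoxO targets that slow the cell cycle, 8 were higher (53.3%, against 6.61% over all genes) and 1 lower (6.67%, against 10.0%), with a median of 1.35 against -0.07 over all genes. On the values as deposited 2 were higher and 1 lower, and the median was 0.98. BTG1, which blocks proliferation, read 11.09 and 11.12 in RCC4 EV cells, 10.87 and 13.86 in RCC4 FoxO3 cells, 11.70 and 11.56 in UMRC2 EV cells, and 11.84 and 13.89 in UMRC2 FoxO3 cells. Every FoxO3 array with 4OHT was above every other array of its line, and the change was 2.58 ± 0.20 (adjusted p = 0.00103). CDKN1B, which encodes p27, an inhibitor of the kinases that drive the cell cycle, read 11.36 and 11.38 in RCC4 EV cells, 11.22 and 12.76 in RCC4 FoxO3 cells, 10.99 and 10.98 in UMRC2 EV cells, and 11.19 and 12.94 in UMRC2 FoxO3 cells. It rose by 1.64 ± 0.16 (adjusted p = 0.00162), with little difference between the lines (1.51 in RCC4 and 1.76 in UMRC2). CDKN1B was not called on the values as deposited (adjusted p = 0.256).

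CCNG2, an unusual cyclin linked to arrest, changed by 2.09 ± 0.21 (adjusted p = 0.00181). The transcription regulators CITED2 (2.20 ± 0.30) and KLF6 (2.17 ± 0.32) rose more in RCC4 than in UMRC2, with 2.90 in RCC4 and 1.5 in UMRC2 for CITED2. RBL2, the p130 pocket protein, changed by 1.42 (adjusted p = 0.00866) and GADD45B, a stress-response gene, by 1.01 (adjusted p = 0.0175). Among inhibitors that were not called, CDKN1A (p21) had 0.79 in RCC4 and -0.23 in UMRC2 and CDKN1C (p57) 0.81 in RCC4 and 2.53 in UMRC2. RBL2 missed the threshold without the RCC4 EV pair (adjusted p = 0.0612). GADD45B lost its call without the UMRC2 EV or UMRC2 FoxO3 pair (adjusted p = 0.0673 to 0.11). GADD45B gave 0.60 (adjusted p = 0.0947, not called) over the mean of all probe sets. CCNG2, GADD45B, KLF6 and RBL2 were not called on the values as deposited (adjusted p = 0.052 to 0.699).

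CCND1, the cyclin D1 gene that drives cells through G1 and that FoxO represses, was the lower member of that list. CCND1 read 9.41 and 9.22 in RCC4 EV cells, 9.48 and 6.74 in RCC4 FoxO3 cells, 11.39 and 11.32 in UMRC2 EV cells, and 11.42 and 8.74 in UMRC2 FoxO3 cells. Both FoxO3 arrays with 4OHT were below all others of their line, and CCND1 fell by 2.58 ± 0.24 in log2 units (adjusted p = 0.0015), nearly the same in RCC4 and UMRC2. CCND2 gave -2.39 in RCC4 and -0.37 in UMRC2 and was not called (adjusted p = 0.14).

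Of 13 FoxO targets in cell death, 4 were higher (30.8%, against 6.61% over all genes) and 1 lower (7.69%, against 10.0%), with a median of 0.35. As deposited, 2 were higher and 1 lower, and the median was 0.04. TNFSF10, the death ligand TRAIL, read 7.68 and 7.42 in RCC4 EV cells, 8.07 and 12.48 in RCC4 FoxO3 cells, 11.51 and 11.41 in UMRC2 EV cells, and 11.56 and 13.35 in UMRC2 FoxO3 cells. It rose in both lines and more in RCC4 (3.28 ± 0.55, adjusted p = 0.00789). BCL6, a transcriptional repressor, changed by 2.39 in RCC4 and 2.33 in UMRC2 (adjusted p = 0.00631), and PMAIP1, the BH3-only protein NOXA, by 1.53 in RCC4 and 1.70 in UMRC2 (adjusted p = 0.00787). TP53INP1, an autophagy and stress protein, gave 1.60 with 3 of 8 arrays at the floor. BCL2L11, the BH3-only protein BIM, read 9.0 and 9.51 in RCC4 EV cells, 9.26 and 10.30 in RCC4 FoxO3 cells, 8.74 and 8.75 in UMRC2 EV cells, and 8.90 and 11.39 in UMRC2 FoxO3 cells, and was not called (1.51 ± 0.49, adjusted p = 0.0791). TNFRSF10B, a TRAIL receptor, fell by 1.46 ± 0.27 in log2 units (adjusted p = 0.0107), opposite to its ligand. TNFSF10 gave 2.13 without the RCC4 EV pair. TP53INP1 lost its call without the RCC4 EV, UMRC2 EV or UMRC2 FoxO3 pair (adjusted p = 0.0537 to 0.248). TNFRSF10B no longer passed without the RCC4 EV pair (adjusted p = 0.0575). TNFRSF10B gave -0.90 (adjusted p = 0.109, not called) with all probe sets averaged. TP53INP1 was not called without the replicate block (adjusted p = 0.0527). PMAIP1 and TP53INP1 were not called on the values as deposited (adjusted p = 0.275 to 0.298).

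Genes that feed back on growth factor and insulin signalling came next, to be set against 6.61% higher and 10.0% lower over all genes. Of 20 measured, 10 were higher (50%) and 3 lower (15%), or 4 and 1 on the values as deposited, with a median of 1.41 (1.40 in RCC4 and 0.82 in UMRC2), and 6 without the RCC4 EV pair were higher. ERBB3, a receptor of the EGF receptor family, read 8.14 and 7.84 in RCC4 EV cells, 8.52 and 12.16 in RCC4 FoxO3 cells, 8.08 and 7.50 in UMRC2 EV cells, and 7.89 and 9.51 in UMRC2 FoxO3 cells. It rose by 3.94 in RCC4 and 2.20 in UMRC2 (adjusted p = 0.00377). The receptor gene IGF1R changed by 1.77 in RCC4 and 1.56 in UMRC2 (adjusted p = 0.0023), and RICTOR, the defining subunit of mTORC2, by 2.11 in RCC4 and 1.22 in UMRC2 (adjusted p = 0.00547). IGF1R and RICTOR were not called on the values as deposited (adjusted p = 0.243 to 0.265).

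KLHL24, a substrate adaptor of a ubiquitin ligase, changed by 1.75 (adjusted p = 0.00458). The insulin receptor gene INSR (1.25), its adaptor IRS1 (1.63), the mTORC1 inhibitor TSC1 (1.02) and SESN1, a stress-induced inhibitor of mTORC1 (2.11), were called higher, each with a pair on which the call rested. SESN3, another sestrin, read 5.93 and 5.77 in RCC4 EV cells, 5.51 and 10.61 in RCC4 FoxO3 cells, 5.94 and 5.45 in UMRC2 EV cells, and 5.66 and 6.95 in UMRC2 FoxO3 cells. It had one of the larger values in RCC4 (5.26 in RCC4 and 1.78 in UMRC2), but was not called (adjusted p = 0.0892). IRS2 gave 2.97 in RCC4 and 0.19 in UMRC2 (adjusted p = 0.0914). INSR missed the threshold without the RCC4 EV, UMRC2 EV or UMRC2 FoxO3 pair (adjusted p = 0.0594 to 0.132). IRS1 lost its call without the RCC4 EV, RCC4 FoxO3 or UMRC2 EV pair (adjusted p = 0.0802 to 0.132). TSC1 no longer passed without the RCC4 EV, RCC4 FoxO3, UMRC2 EV or UMRC2 FoxO3 pair (adjusted p = 0.0675 to 0.154). SESN1 fell short of the threshold without the RCC4 EV or RCC4 FoxO3 pair (adjusted p = 0.219 to 0.269), with a change of 1.03 without RCC4 EV, 1.01 without RCC4 FoxO3, 3.20 without UMRC2 EV and 3.22 without UMRC2 FoxO3. INSR gave 1.0 (adjusted p = 0.125, not called), IRS1 gave 1.15 (adjusted p = 0.0642, not called) and SESN1 gave 2.11 (adjusted p = 0.0766, not called) when probe sets were averaged. SESN1 was not called without the replicate block (adjusted p = 0.117). INSR, IRS1, KLHL24, SESN1 and TSC1 were not called on the values as deposited (adjusted p = 0.0789 to 0.69).

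The lower members of the feedback group were DDIT4, the hypoxia-induced mTORC1 inhibitor REDD1, PIK3R1, the regulatory subunit of PI3K, and EIF4EBP1, the translation repressor 4E-BP1. DDIT4 read 13.28 and 13.37 in RCC4 EV cells, 13.37 and 11.39 in RCC4 FoxO3 cells, 12.52 and 12.87 in UMRC2 EV cells, and 12.76 and 10.23 in UMRC2 FoxO3 cells. It fell by 2.47 ± 0.29 in log2 units (adjusted p = 0.00265). PIK3R1 (-1.06) and EIF4EBP1 (-0.76) changed less. PIK3R1 missed the threshold without the RCC4 EV, RCC4 FoxO3, UMRC2 EV or UMRC2 FoxO3 pair (adjusted p = 0.073 to 0.219). EIF4EBP1 lost its call without the RCC4 EV, RCC4 FoxO3 or UMRC2 EV pair (adjusted p = 0.0658 to 0.0884). PIK3R1 gave -1.10 (adjusted p = 0.052, not called) over the mean of all probe sets. EIF4EBP1 and PIK3R1 were not called on the values as deposited (adjusted p = 0.186 to 0.34).

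Metabolic FoxO targets had 6 of 13 higher (46.2%) and 1 lower, or 3 and 0 on the values as deposited (median 0.63, and 2 without the RCC4 EV pair). The 1 lower gene is 7.69% of the list, and over all genes 6.61% were higher and 10.0% lower. Besides IGFBP1 and RBP4, PDK4 rose, a kinase that keeps pyruvate out of the mitochondrial oxidation pathway. PDK4 read 4.27 and 4.20 in RCC4 EV cells, 4.72 and 10.06 in RCC4 FoxO3 cells, 6.51 and 7.11 in UMRC2 EV cells, and 7.14 and 10.28 in UMRC2 FoxO3 cells. It went up in FoxO3 cells of both lines (3.97 ± 0.83, adjusted p = 0.0182). GLUL, glutamine synthetase, changed by 1.95 in RCC4 and 1.21 in UMRC2 (adjusted p = 0.00311), and CYP27A1, a sterol hydroxylase, by 1.64 in RCC4 and 1.45 in UMRC2 (adjusted p = 0.00969). ADIPOR1, an adiponectin receptor, changed by 0.63. TXNIP, which restrains the uptake of glucose, fell by 1.11 ± 0.19 in log2 units (adjusted p = 0.00893), and PPARGC1A, the PGC-1alpha coactivator, gave -1.73 in RCC4 and -0.79 in UMRC2 and was not called (adjusted p = 0.0695). PDK4 missed the threshold without the RCC4 EV or RCC4 FoxO3 pair (adjusted p = 0.0977 to 0.103), with a change of 2.61 without RCC4 FoxO3. CYP27A1 lost its call without the RCC4 EV pair (adjusted p = 0.0666). ADIPOR1 no longer passed without the RCC4 EV, RCC4 FoxO1, UMRC2 EV, UMRC2 FoxO1 or UMRC2 FoxO3 pair (adjusted p = 0.0598 to 0.178). TXNIP fell short of the threshold without the UMRC2 EV pair (adjusted p = 0.0577). PDK4 gave 3.09 (adjusted p = 0.0563, not called) with all probe sets averaged. ADIPOR1, CYP27A1, GLUL and TXNIP were not called on the values as deposited (adjusted p = 0.153 to 0.882).

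Oxidative defence genes mostly did not pass the test. Of 14 measured, 3 were higher (21.4%, against 6.61% over all genes), 1 lower (7.14%, against 10.0%) and 10 not called (median 0.35). On the values as deposited 1 was higher and 1 lower, with a median of -0.04. Higher genes numbered 1 without the RCC4 EV pair, 6 without the RCC4 FoxO1 pair, 6 without the UMRC2 FoxO1 pair, or 5 if the UMRC2 FoxO3 pair was left out. CAT, catalase, read 12.02 and 12.04 in RCC4 EV cells, 11.88 and 13.00 in RCC4 FoxO3 cells, 12.45 and 12.35 in UMRC2 EV cells, and 12.28 and 13.58 in UMRC2 FoxO3 cells. It rose by 1.26 ± 0.18 (adjusted p = 0.00456). SOD1 changed by 0.42, and the mitochondrial SOD2 gave 2.05 in RCC4 and 0.73 in UMRC2 and was not called (adjusted p = 0.0933). SCO2, a copper chaperone of cytochrome oxidase, fell by 1.55 ± 0.24 in log2 units (adjusted p = 0.00626). SOD1 missed the threshold without the RCC4 EV, UMRC2 EV or UMRC2 FoxO3 pair (adjusted p = 0.0955 to 0.145). CAT and SOD1 were not called on the values as deposited (adjusted p = 0.532 to 0.989).

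Autophagy and proteolysis targets had 8 higher (47.1%) and 0 lower of 17, or 2 and 0 on the values as deposited (median 1.02, and 4 without the UMRC2 EV pair, or 4 if the UMRC2 FoxO3 pair was left out). Over all genes 6.61% were higher and 10.0% lower. GABARAPL1, an autophagosome membrane protein, read 9.24 and 9.14 in RCC4 EV cells, 9.21 and 11.09 in RCC4 FoxO3 cells, 8.87 and 8.35 in UMRC2 EV cells, and 8.56 and 11.12 in UMRC2 FoxO3 cells. It rose by 1.97 in RCC4 and 3.09 in UMRC2 (adjusted p = 0.00297). MAP1LC3B, the LC3 protein of autophagosomes, changed by 1.06 in RCC4 and 1.10 in UMRC2 (adjusted p = 0.00343), and OPTN, an autophagy receptor, by 1.21 (adjusted p = 0.00706). FBXO32, the atrogin-1 ubiquitin ligase of muscle wasting, read 6.97 and 6.38 in RCC4 EV cells, 6.60 and 10.19 in RCC4 FoxO3 cells, 9.46 and 9.23 in UMRC2 EV cells, and 9.18 and 10.40 in UMRC2 FoxO3 cells, with a change of 2.82 ± 0.66 (adjusted p = 0.0264). The membrane nucleation genes WIPI1 (1.54), PIK3C3 (1.02) and BECN1 (0.79) and the receptor NBR1 (1.02) were higher too. The kinases ULK1 (1.41 in RCC4 and 0.92 in UMRC2) and ULK2 (0.54 in RCC4 and 1.79 in UMRC2) were not called. FBXO32 missed the threshold without the RCC4 EV pair (adjusted p = 0.135), with a change of 1.40 without RCC4 FoxO3 and 4.24 without UMRC2 FoxO3. WIPI1 lost its call without the UMRC2 EV or UMRC2 FoxO3 pair (adjusted p = 0.0696 to 0.123). PIK3C3 no longer passed without the RCC4 FoxO3, UMRC2 EV or UMRC2 FoxO3 pair (adjusted p = 0.0746 to 0.233). BECN1 fell short of the threshold without the RCC4 EV, RCC4 FoxO3, UMRC2 EV or UMRC2 FoxO3 pair (adjusted p = 0.0627 to 0.183). NBR1 missed the threshold without the UMRC2 EV or UMRC2 FoxO3 pair (adjusted p = 0.0795 to 0.189). BECN1 gave 0.38 (adjusted p = 0.339, not called), FBXO32 gave 2.08 (adjusted p = 0.0953, not called), NBR1 gave 0.60 (adjusted p = 0.304, not called), PIK3C3 gave 0.71 (adjusted p = 0.308, not called) and WIPI1 gave 1.12 (adjusted p = 0.0954, not called) when probe sets were averaged. BECN1, MAP1LC3B, NBR1, OPTN, PIK3C3 and WIPI1 were not called on the values as deposited (adjusted p = 0.355 to 0.818).

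**Figure D3:**
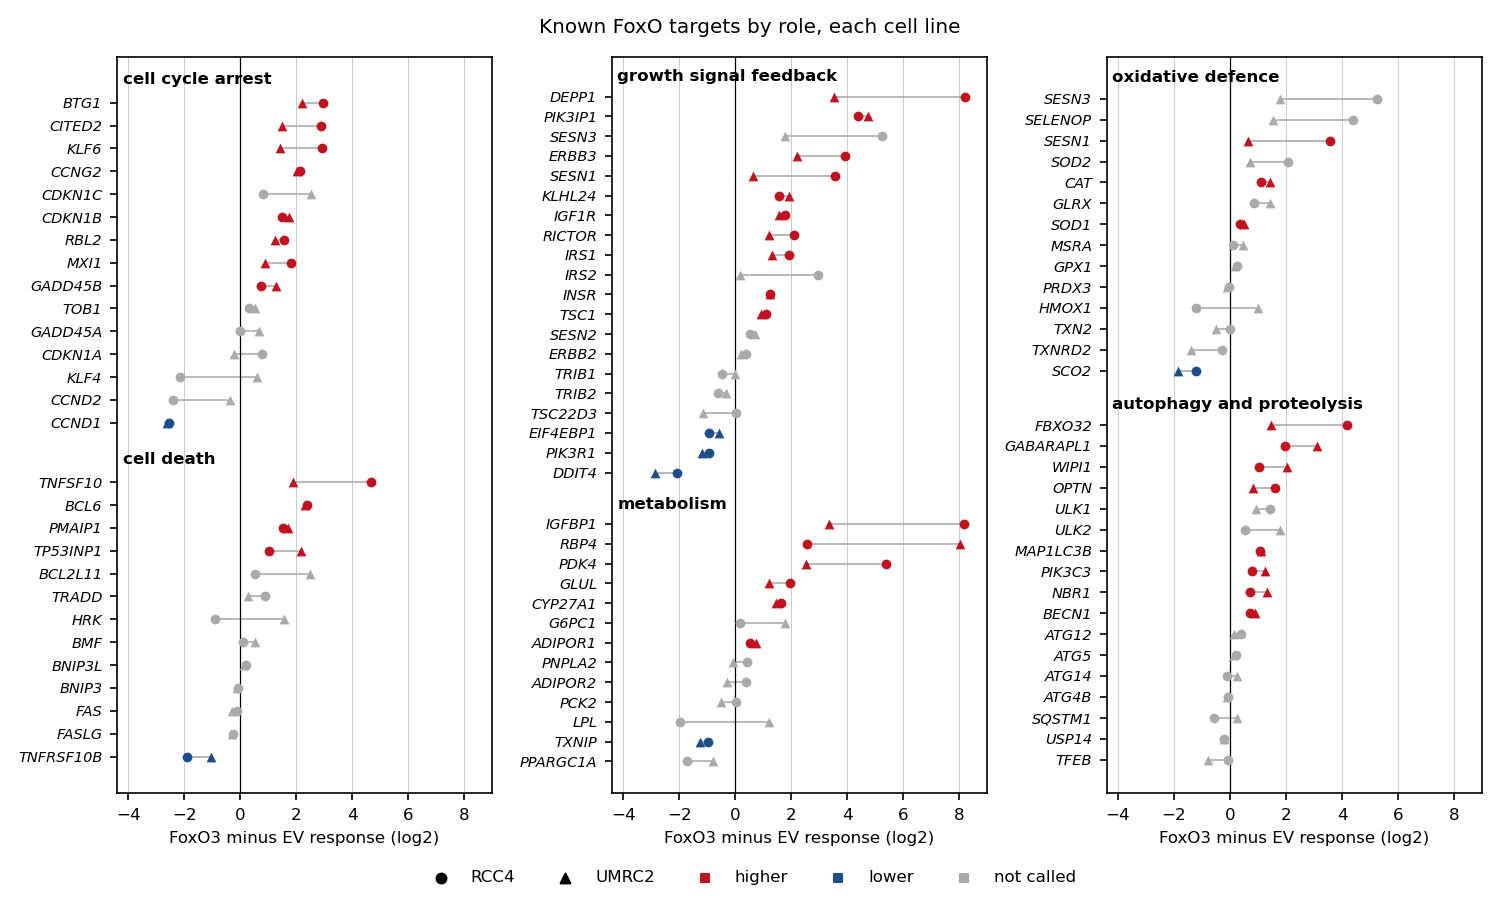
Change in RCC4 (circles) and UMRC2 (triangles) on the log2 scale for every measured FoxO target, grouped by role and joined by a line per gene. Red genes were called higher (for example DEPP1, PIK3IP1 and BTG1), blue lower (for example CCND1 and DDIT4) and grey ones did not pass.

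MYC, which drives growth and biosynthesis genes, was lower and its antagonist MXI1 higher. MYC read 11.79 and 11.85 in RCC4 EV cells, 12.14 and 9.04 in RCC4 FoxO3 cells, 12.61 and 12.73 in UMRC2 EV cells, and 12.81 and 11.14 in UMRC2 FoxO3 cells. In FoxO3 cells of both lines it fell, and the net level fell by 2.48 ± 0.36 in log2 units (adjusted p = 0.00507). MXI1 read 11.001 and 11.09 in RCC4 EV cells, 11.30 and 13.21 in RCC4 FoxO3 cells, 12.08 and 12.16 in UMRC2 EV cells, and 12.61 and 13.58 in UMRC2 FoxO3 cells. Both FoxO3 arrays with 4OHT were above the other arrays of their line, a change of 1.35 ± 0.22 (adjusted p = 0.0073), with 1.82 in RCC4 and 0.89 in UMRC2. The other 10 of 12 genes of the MYC and MAX network were not called, among them MXD3 (-0.90, adjusted p = 0.0551) and MGA (-1.47, adjusted p = 0.146). Of the 12 genes, 8.33% were higher and 8.33% lower, near the 6.61% and 10.0% over all genes. MXI1 was not called on the values as deposited (adjusted p = 0.44).

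Proliferation genes were lower in both lines, to be set against 10.0% lower and 6.61% higher over all genes. Of 39 genes of G1/S and DNA replication, 30 were lower (76.9%) and 0 higher (14 and 0 on the values as deposited), with a median of -1.29 (-1.24 in RCC4 and -1.25 in UMRC2), and 16 without the UMRC2 EV pair were lower. RRM2, the regulated subunit of ribonucleotide reductase, read 12.81 and 12.85 in RCC4 EV cells, 12.87 and 10.73 in RCC4 FoxO3 cells, 12.81 and 12.78 in UMRC2 EV cells, and 12.95 and 10.02 in UMRC2 FoxO3 cells. EV cells changed little, and the fall net of EV was 2.54 ± 0.19 in log2 units (adjusted p = 0.00103). ORC1 (-2.22 ± 0.28) of the origin recognition complex, MCM10 (-2.15 ± 0.21) and MCM2 (-2.08 ± 0.18) of the replication helicase fell by similar amounts. Not called were E2F1 (-0.24) and MCM6 (-0.22).

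G2/M and mitosis genes had 32 of 40 lower (80%, against 10.0% over all genes) and 0 higher, with a median of -1.13. As deposited, 9 were lower. CDC20, the activator of the anaphase ubiquitin ligase, read 13.17 and 13.13 in RCC4 EV cells, 13.16 and 10.96 in RCC4 FoxO3 cells, 12.71 and 12.87 in UMRC2 EV cells, and 12.48 and 9.98 in UMRC2 FoxO3 cells. In each line the FoxO3 array with 4OHT was below the 3 other arrays, a change of -2.41 ± 0.16 (adjusted p = 0.00103). KIF20A, a kinesin of cytokinesis (-2.21 ± 0.16), and the cyclins CCNA2 (-2.12 ± 0.16) and CCNB1 (-1.73 ± 0.15) fell as well. FOXM1, a forkhead activator of mitotic genes that FoxO opposes, read 11.50 and 11.60 in RCC4 EV cells, 11.43 and 10.45 in RCC4 FoxO3 cells, 11.59 and 11.58 in UMRC2 EV cells, and 11.67 and 10.72 in UMRC2 FoxO3 cells. It changed by -1.02 ± 0.16 (adjusted p = 0.00617). FOXM1 was not called on the values as deposited (adjusted p = 0.188).

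Repair genes of homologous recombination and the Fanconi pathway had 11 of 25 lower and 1 higher (44% and 4%), or 5 and 0 on the values as deposited (median -0.87, with 4 without the UMRC2 EV pair, or 7 if the UMRC2 FoxO3 pair was left out). Over all genes 10.0% were lower and 6.61% higher. UBE2T, the ubiquitin-conjugating enzyme of the Fanconi pathway, fell by 2.22 ± 0.17 in log2 units (adjusted p = 0.00103) and RAD54L, a recombination motor, by 1.61 ± 0.24 (adjusted p = 0.00517). MRE11, a nuclease at DNA breaks, was the higher member (0.91). MRE11 missed the threshold without the RCC4 EV, RCC4 FoxO3, UMRC2 EV or UMRC2 FoxO3 pair (adjusted p = 0.0605 to 0.193). MRE11 gave 0.13 (adjusted p = 0.866, not called) over the mean of all probe sets. MRE11 was not called without the replicate block (adjusted p = 0.0612). MRE11 was not called on the values as deposited (adjusted p = 0.771).

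The lower proliferation genes were accompanied by lower biosynthesis genes. Of 36 genes of ribosome biogenesis and RNA polymerase I, 25 were lower and 0 higher, or 13 lower on the values as deposited (median -1.36, with 16 without the UMRC2 EV pair). The 25 lower genes are 69.4% of the list, against 10.0% over all genes. POLR1B, the second-largest subunit of RNA polymerase I, read 10.38 and 10.40 in RCC4 EV cells, 10.46 and 7.34 in RCC4 FoxO3 cells, 10.39 and 10.47 in UMRC2 EV cells, and 10.503 and 8.03 in UMRC2 FoxO3 cells. It fell by 2.85 ± 0.26 in log2 units (adjusted p = 0.0015). NLE1 (-2.63 ± 0.32), TSR1 (-2.41 ± 0.20) and NOP16 (-2.27 ± 0.22), which assemble ribosomal subunits, fell too. The ribosomal proteins themselves did not follow: 0 of 27 cytosolic ribosomal protein genes were higher and 0 lower by limma (0 with an unadjusted p under 0.05), with changes from -0.24 to 0.12 and a median of -0.02. NOP16 gave -0.88 (adjusted p = 0.105, not called) and TSR1 gave -1.55 (still called) with all probe sets averaged.

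Nucleotide synthesis and one-carbon genes had 18 of 22 lower, or 5 on the values as deposited (median -1.25, with 11 without the UMRC2 EV pair). The 18 lower genes are 81.8% of the list, against 10.0% over all genes. IMPDH2, the rate-limiting enzyme of guanine nucleotide synthesis, read 12.81 and 12.75 in RCC4 EV cells, 12.79 and 11.21 in RCC4 FoxO3 cells, 11.96 and 11.93 in UMRC2 EV cells, and 11.96 and 9.18 in UMRC2 FoxO3 cells. It fell by 2.14 ± 0.28 in log2 units (adjusted p = 0.00329). The folate enzymes MTHFD2 (-2.0 ± 0.19) and MTHFD1 (-1.75 ± 0.20) and PRPS1, which makes the ribose phosphate donor (-1.85 ± 0.27), fell. Aminoacyl-tRNA synthetases had 13 of 17 lower, or 4 on the values as deposited (median -0.92, with 8 without the UMRC2 EV pair), led by both subunits of the phenylalanine enzyme, FARSB (-2.68 ± 0.29) and FARSA (-2.27 ± 0.21). The 13 lower synthetases are 76.5% of their list, against 10.0% over all genes. FARSB gave -1.52 (still called) and MTHFD1 gave -0.52 (adjusted p = 0.26, not called) when probe sets were averaged.

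Mitochondrial genes were counted by function. The mitochondrial ribosome had 13 of 41 genes lower, or 1 on the values as deposited (median -0.39, with 8 without the UMRC2 EV pair), for example MRPL17 (-1.64 ± 0.21) and MRPL3 (-1.36 ± 0.14). Import and biogenesis factors had 12 of 24 lower and 1, TOMM70, higher, or 4 and 0 on the values as deposited (median -0.71, with 6 without the UMRC2 EV pair). The lower share was 31.7% for the mitochondrial ribosome and 50% for import and biogenesis factors, against 10.0% over all genes. PPRC1, a PGC-1-related coactivator, read 9.80 and 9.82 in RCC4 EV cells, 9.89 and 7.03 in RCC4 FoxO3 cells, 10.02 and 10.26 in UMRC2 EV cells, and 9.98 and 7.69 in UMRC2 FoxO3 cells. It fell by 2.70 ± 0.25 in log2 units (adjusted p = 0.0015), and HSPE1, the small mitochondrial chaperonin, by 1.66 ± 0.22 (adjusted p = 0.00356). The nuclear-encoded oxidative phosphorylation subunits had 3 lower and 1 higher of 44 (6.82% and 2.27%, against 10.0% and 6.61% over all genes), with a median of 0.08 that became -0.29 on the values as deposited. The 4 were CYC1 (-0.85), COX5A (-0.66), NDUFS3 (-0.65) and NDUFS1 (0.77). CYC1 missed the threshold without the UMRC2 EV pair (adjusted p = 0.0576). COX5A lost its call without the UMRC2 EV pair (adjusted p = 0.0907). NDUFS3 no longer passed without the RCC4 EV, RCC4 FoxO3 or UMRC2 EV pair (adjusted p = 0.131 to 0.174). NDUFS1 fell short of the threshold without the RCC4 EV, RCC4 FoxO3 or UMRC2 EV pair (adjusted p = 0.0824 to 0.125). COX5A gave -0.67 (adjusted p = 0.168, not called) and NDUFS1 gave 0.42 (adjusted p = 0.249, not called) over the mean of all probe sets. NDUFS3 was not called without the replicate block (adjusted p = 0.0612). COX5A, CYC1, MRPL3, NDUFS1 and NDUFS3 were not called on the values as deposited (adjusted p = 0.0603 to 0.815).

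**Figure D4:**
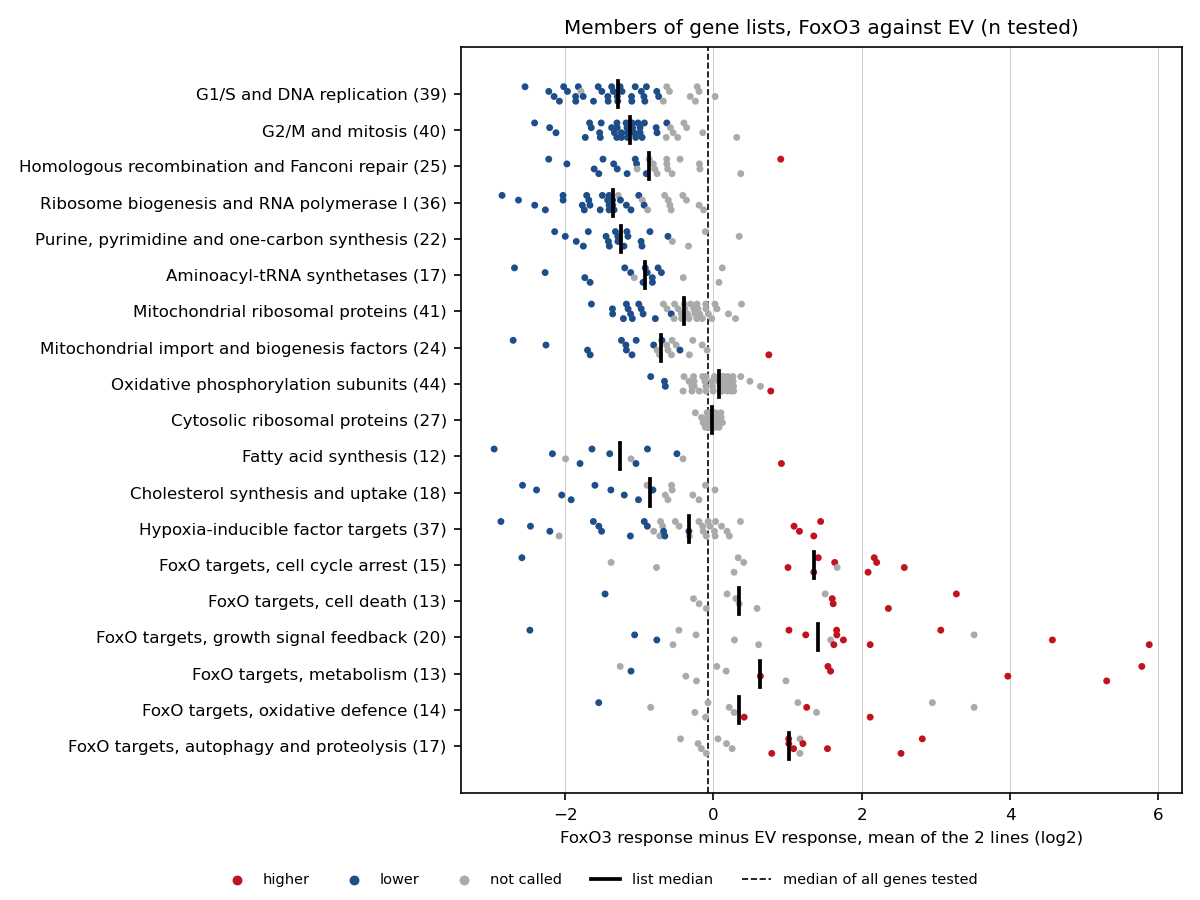
Change (log2, mean of the 2 lines) of each measured member of 19 gene lists, with the number tested in brackets, coloured by call, a bar at each list's median and a dashed line at the median of all genes tested (-0.07). The proliferation and biosynthesis lists lie left of the dashed line, the cytosolic ribosomal proteins and oxidative phosphorylation subunits close to it, and the FoxO target lists to its right.

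Lipid synthesis genes were lower in both branches. For fatty acids, 8 of 12 synthesis genes were lower and 1, ACSS2, higher, or 5 and 0 on the values as deposited (median -1.25, with 5 without the UMRC2 EV pair). The 8 lower genes are 66.7% and the 1 higher gene 8.33%, against 10.0% and 6.61% over all genes. ACACA, which makes malonyl-CoA, read 10.79 and 10.81 in RCC4 EV cells, 10.83 and 8.75 in RCC4 FoxO3 cells, 9.92 and 9.95 in UMRC2 EV cells, and 10.21 and 6.43 in UMRC2 FoxO3 cells. It changed by -2.10 in RCC4 and -3.81 in UMRC2 (adjusted p = 0.00317). FASN, the fatty acid synthase (-1.80 ± 0.21), and the elongase ELOVL6 (-2.17 ± 0.27) fell, while SREBF1, the lipid transcription factor, gave -2.19 in RCC4 and -1.79 in UMRC2 and was not called (adjusted p = 0.0666). Of 18 cholesterol genes 9 were lower (50%, against 10.0% over all genes) and 0 higher, with a median of -0.85. As deposited, 5 were lower and 0 higher. SQLE, squalene epoxidase, changed by -1.92 ± 0.14 (adjusted p = 0.00103), MVD of the mevalonate pathway by -2.57 ± 0.41 (adjusted p = 0.00668) and INSIG1, a sterol sensor, by -2.38 ± 0.29 (adjusted p = 0.00284). ELOVL6 gave -1.36 (still called) and FASN gave -1.48 (adjusted p = 0.0771, not called) with all probe sets averaged.

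Targets of the hypoxia-inducible factors, which are always active in cells without VHL, were called in both directions after normalisation. Of 37 measured, 12 were lower (32.4%, against 10.0% over all genes) and 4 higher (10.8%, against 6.61%), with a median of -0.33. On the values as deposited 7 were lower and 0 higher. VEGFA, the angiogenic growth factor, read 11.35 and 11.36 in RCC4 EV cells, 11.16 and 8.14 in RCC4 FoxO3 cells, 12.58 and 12.48 in UMRC2 EV cells, and 12.47 and 9.67 in UMRC2 FoxO3 cells. FoxO3 with 4OHT was below the other arrays of its line in both cell lines, and VEGFA fell by 2.87 ± 0.22 in log2 units (7.29-fold, adjusted p = 0.00115). HK2, which starts glycolysis, read 10.69 and 10.91 in RCC4 EV cells, 10.80 and 8.64 in RCC4 FoxO3 cells, 10.35 and 10.96 in UMRC2 EV cells, and 10.89 and 8.94 in UMRC2 FoxO3 cells. It fell by 2.47 ± 0.25 (adjusted p = 0.00177), and PFKFB4, a regulator of glycolysis, by 2.21 ± 0.25 (adjusted p = 0.00245).

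Among the other glycolytic genes of the list, HK1 (-1.12), ENO2 (-1.51), PFKP (-0.93), PFKFB3 (-0.89) and PGAM1 (-0.33) were called lower too. Glycolytic genes that were not called included LDHA (0.03), PGK1 (-0.05), ALDOA (0.02), GAPDH (0.11), ENO1 (-0.14) and PKM (-0.15). The higher hypoxia genes were PDK1, which restrains pyruvate oxidation (1.16 ± 0.22), PLOD2, a collagen hydroxylase (1.09 ± 0.18), LOX, a collagen cross-linking oxidase (1.45 ± 0.34), and MXI1. ANGPTL4 gave -3.54 in RCC4 and -0.62 in UMRC2 and was not called (adjusted p = 0.0671). PDK1 missed the threshold without the UMRC2 EV pair (adjusted p = 0.0681), with a change of 0.75 without UMRC2 EV. LOX lost its call without the RCC4 EV pair (adjusted p = 0.137), with a change of 0.72 without RCC4 FoxO3 and 2.17 without UMRC2 FoxO3. PGAM1 no longer passed with any 1 of the 6 pairs left out (adjusted p = 0.0695 to 0.232). PFKP fell short of the threshold without the UMRC2 EV pair (adjusted p = 0.0534). PFKFB3 missed the threshold without the RCC4 EV pair (adjusted p = 0.0665). LOX gave 1.41 (adjusted p = 0.103, not called), PFKP gave -0.68 (adjusted p = 0.158, not called) and PGAM1 gave -0.33 (adjusted p = 0.0515, not called) when probe sets were averaged. LOX was not called without the replicate block (adjusted p = 0.101). HK1, LOX, PDK1, PFKFB3, PFKP, PGAM1 and PLOD2 were not called on the values as deposited (adjusted p = 0.127 to 0.636).

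Signalling genes downstream of ERK were called in both directions. Of 24 measured, 4 were higher (16.7%, against 6.61% over all genes) and 6 lower (25%, against 10.0%), with a median of 0.14 (-0.18 on the values as deposited). The count of higher genes was 2 without the RCC4 FoxO3 pair, and as deposited the counts were 2 and 4. DUSP6, the phosphatase that switches ERK off, read 6.51 and 6.27 in RCC4 EV cells, 7.05 and 10.08 in RCC4 FoxO3 cells, 6.35 and 6.26 in UMRC2 EV cells, and 6.4 and 9.66 in UMRC2 FoxO3 cells. It rose by 3.27 in RCC4 and 3.35 in UMRC2 (adjusted p = 0.00455), and IER3, an early gene, by 1.81 in RCC4 and 2.62 in UMRC2 (adjusted p = 0.00206). SPRY2, a feedback inhibitor of receptor signalling, read 6.0 and 4.20 in RCC4 EV cells, 4.77 and 7.79 in RCC4 FoxO3 cells, 8.02 and 8.21 in UMRC2 EV cells, and 8.22 and 10.501 in UMRC2 FoxO3 cells. Its change of 3.46 (adjusted p = 0.0118) included a fall in RCC4 EV cells. FOSL1, an AP-1 subunit, fell by 2.67 ± 0.25 in log2 units (adjusted p = 0.0015), and the ephrin receptor gene EPHA2 by 1.99 ± 0.27 (adjusted p = 0.00386). SPRY2 missed the threshold without the RCC4 EV or RCC4 FoxO3 pair (adjusted p = 0.051 to 0.0609). IER3 was not called on the values as deposited (adjusted p = 0.0668).

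Kidney transport and iron genes held some of the largest values in either direction. Of 22 renal carriers and tubule proteins, 4 were higher (18.2%, against 6.61% over all genes) and 2 lower (9.09%, near the 10.0% over all genes). Their median was 0.20, or -0.05 on the values as deposited. NEDD4L, the ubiquitin ligase that withdraws the epithelial sodium channel, read 8.43 and 8.29 in RCC4 EV cells, 8.59 and 11.68 in RCC4 FoxO3 cells, 10.18 and 10.20 in UMRC2 EV cells, and 10.18 and 13.87 in UMRC2 FoxO3 cells. It rose by 3.45 ± 0.23 (adjusted p = 0.00103). SLC4A4, the sodium bicarbonate cotransporter of the proximal tubule, read 12.95 and 12.98 in RCC4 EV cells, 12.75 and 10.06 in RCC4 FoxO3 cells, 10.46 and 10.47 in UMRC2 EV cells, and 10.28 and 7.39 in UMRC2 FoxO3 cells. It fell by 2.80 ± 0.19 in log2 units (adjusted p = 0.00103), and ATP1B1, a subunit of the sodium pump, by 2.31 ± 0.14 (adjusted p = 0.00103). NEDD4L gave 2.14 (still called) over the mean of all probe sets.

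Of 10 iron genes, SLC40A1 and CP were higher and STEAP3 and TFRC lower (20% each way, against 6.61% and 10.0% over all genes). SLC40A1 is counted among the renal carriers too. CP, ceruloplasmin, the ferroxidase that works with ferroportin, read 9.50 and 9.34 in RCC4 EV cells, 9.51 and 12.64 in RCC4 FoxO3 cells, 11.13 and 10.84 in UMRC2 EV cells, and 10.77 and 13.23 in UMRC2 FoxO3 cells. It rose by 3.02 ± 0.37 (adjusted p = 0.00286). TFRC, the transferrin receptor that takes iron in, changed by -0.65 and STEAP3, an iron reductase, by -1.37. TFRC missed the threshold without the RCC4 EV, RCC4 FoxO3 or UMRC2 EV pair (adjusted p = 0.0599 to 0.112), with a change of -0.39 without RCC4 FoxO3. STEAP3 lost its call without the RCC4 EV or RCC4 FoxO3 pair (adjusted p = 0.0634 to 0.106), with a change of -0.88 without RCC4 FoxO3. TFRC gave -0.58 (adjusted p = 0.103, not called) with all probe sets averaged. STEAP3 and TFRC were not called on the values as deposited (adjusted p = 0.0702 to 0.333).

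Among junction and matrix genes, CLDN1 was higher (2.01 ± 0.21, adjusted p = 0.00202) and CLDN2, a leaky claudin of the proximal tubule, lower (-2.56 ± 0.26, adjusted p = 0.00181). KRT18, a keratin, was the other lower one of 17 junction and epithelial genes (-1.47 ± 0.19). That is 5.88% higher and 11.8% lower, near the 6.61% and 10.0% over all genes. Among 20 mesenchymal and matrix genes, 1 was higher (5%) and 2 were lower (10%), again near those shares. COL1A2, a collagen chain, gave 3.27 with a fall in EV cells (-1.66 in RCC4 and -1.64 in UMRC2), and COL4A1 gave -1.72. Of the kidney lineage genes, PAX8 read 12.54 and 12.52 in RCC4 EV cells, 12.54 and 11.17 in RCC4 FoxO3 cells, 12.58 and 12.58 in UMRC2 EV cells, and 12.41 and 11.43 in UMRC2 FoxO3 cells. It fell by 1.17 ± 0.15 in log2 units (adjusted p = 0.00323), and PAX2 gave -2.05 in RCC4 and -0.40 in UMRC2 and was not called (adjusted p = 0.0959). COL1A2 missed the threshold without the RCC4 EV or RCC4 FoxO3 pair (adjusted p = 0.0699 to 0.0872). COL4A1 lost its call without the RCC4 EV pair (adjusted p = 0.0512), with a change of -1.05 without RCC4 FoxO3. PAX8 gave -1.93 (still called) when probe sets were averaged. CLDN1 and PAX8 were not called on the values as deposited (adjusted p = 0.103 to 0.111).

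Tubulin partners other than TPPP changed less. TUBA4A fell by 1.5 ± 0.20 in log2 units (adjusted p = 0.00347) and TUBG1, the tubulin of centrosomes, by 1.18 ± 0.17 (adjusted p = 0.00507). TUBA1A gave 3.25 in RCC4 and 0.83 in UMRC2. Of 22 interferon-stimulated genes, IFIT2 (3.70 in RCC4 and 3.58 in UMRC2, adjusted p = 0.00148) and IFIT3 (2.51 in RCC4 and 1.86 in UMRC2, adjusted p = 0.00265) were higher and IFIT5 (-0.82) lower (9.09% and 4.55%, against 6.61% and 10.0% over all genes). The median was 0.12, or -0.25 on the values as deposited, and 4 without the UMRC2 FoxO3 pair were higher, while IFIT1 (-0.07), MX1 (-0.89) and ISG15 (0.17) were not called. Of 23 genes of endoplasmic reticulum stress, HERPUD1 was higher (1.74 ± 0.20, adjusted p = 0.00258), or 4.35% against 6.61% over all genes. Another 4 were lower (17.4%, against 10.0%, and 2 without the RCC4 FoxO1 pair, 1 without the UMRC2 EV pair, or 2 if the UMRC2 FoxO1 pair was left out). These were TRIB3, a pseudokinase of the stress response (-3.06 ± 0.28, adjusted p = 0.0015), CHAC1 (-0.97), ASNS, asparagine synthetase (-0.89), and the transcription factor XBP1 (-0.69). Of 16 NF-kB driven genes only NFKBIA was called, and it was lower (-1.01, or 6.25% against 10.0% over all genes). TUBA1A missed the threshold without the RCC4 EV or RCC4 FoxO3 pair (adjusted p = 0.0532 to 0.0595), with a change of 1.08 without RCC4 EV and 1.19 without RCC4 FoxO3. NFKBIA lost its call without the RCC4 EV pair (adjusted p = 0.0572). IFIT5 no longer passed with any 1 of the 6 pairs left out (adjusted p = 0.0597 to 0.161). XBP1 fell short of the threshold with any 1 of the 6 pairs left out (adjusted p = 0.0558 to 0.241). CHAC1 missed the threshold with any 1 of the 6 pairs left out (adjusted p = 0.0618 to 0.185). ASNS lost its call without the UMRC2 EV pair (adjusted p = 0.119). ASNS gave -0.44 (adjusted p = 0.319, not called), IFIT5 gave -0.61 (adjusted p = 0.163, not called), NFKBIA gave -0.87 (adjusted p = 0.0774, not called) and XBP1 gave -0.77 (adjusted p = 0.365, not called) over the mean of all probe sets. CHAC1 and TUBA1A were not called without the replicate block (adjusted p = 0.0569 to 0.0797). ASNS, CHAC1, HERPUD1, IFIT3, IFIT5, NFKBIA, TUBA1A, TUBG1 and XBP1 were not called on the values as deposited (adjusted p = 0.0516 to 0.394).

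Of 22 targets of p53 measured, 2 were higher (9.09%) and 3 lower (13.6%), near the 6.61% and 10.0% over all genes (median -0.08). Higher targets numbered 0 without the RCC4 EV pair, or 1 if the UMRC2 EV pair was left out, and lower ones 5 without the UMRC2 FoxO3 pair. AEN, a nuclease induced by p53, read 7.76 and 8.33 in RCC4 EV cells, 8.31 and 5.19 in RCC4 FoxO3 cells, 9.98 and 10.68 in UMRC2 EV cells, and 10.44 and 7.79 in UMRC2 FoxO3 cells. It fell by 3.52 ± 0.36 in log2 units (adjusted p = 0.00181), and TRIAP1 changed by -1.11 (adjusted p = 0.00554). MDM2 (-0.52) and CDKN1A (0.28) were not called. Of 8 genes that answer to the estrogen receptor 3 were lower (37.5%, against 10.0% over all genes, and 1 without the RCC4 EV pair, or 1 if the RCC4 FoxO3 pair was left out) and 0 higher. The lower ones were RARA, a retinoic acid receptor (-2.90 ± 0.35, adjusted p = 0.00269), CA12, a carbonic anhydrase (-1.62), and XBP1 (-0.69). TFF1 gave 1.93 in RCC4 and 0.31 in UMRC2 (adjusted p = 0.264) and was not called, and the labelled effect of 4OHT through ERT2 was not tested. XBP1 missed the threshold with any 1 of the 6 pairs left out (adjusted p = 0.0558 to 0.241). CA12 lost its call without the RCC4 EV or RCC4 FoxO3 pair (adjusted p = 0.086 to 0.182), with a change of -0.91 without RCC4 EV, -0.76 without RCC4 FoxO3 and -2.48 without UMRC2 FoxO3. CA12 was not called without the replicate block (adjusted p = 0.104). TRIAP1 was not called on the values as deposited (adjusted p = 0.149).

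The largest decreases outside these groups were in signalling and nuclear genes. CDCA7, a MYC-responsive chromatin protein, read 12.36 and 12.34 in RCC4 EV cells, 12.69 and 9.20 in RCC4 FoxO3 cells, 11.52 and 11.41 in UMRC2 EV cells, and 11.83 and 8.07 in UMRC2 FoxO3 cells. EV cells changed little, and in FoxO3 cells it fell by 3.56 ± 0.24 in log2 units (adjusted p = 0.00103). SIX5, a homeobox factor, read 9.03 and 8.94 in RCC4 EV cells, 8.87 and 4.50 in RCC4 FoxO3 cells, 8.96 and 9.23 in UMRC2 EV cells, and 8.67 and 5.73 in UMRC2 FoxO3 cells. It fell by 3.74 ± 0.40 (adjusted p = 0.00206). EFNA3, an ephrin ligand, changed by -3.0 in RCC4 and -4.39 in UMRC2 (adjusted p = 0.00684) and NPRL2, a subunit of the GATOR1 complex that restrains mTORC1, by -2.67 in RCC4 and -3.61 in UMRC2 (adjusted p = 0.00548). CDCA7 gave -2.32 (still called) and SIX5 gave -1.38 (adjusted p = 0.235, not called) with all probe sets averaged.

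RITA1 (-3.14 ± 0.28), PAGR1 (-3.37 ± 0.41), STK32B (-3.50 ± 0.56) and KLHDC7A (-3.21 ± 0.42) were further decreases whose calls held with any 1 pair left out, as did the call of ARHGAP33. P2RY2, the nucleotide receptor gene with the largest decrease, read 4.83 and 6.53 in RCC4 EV cells, 5.96 and 4.34 in RCC4 FoxO3 cells, 4.88 and 7.24 in UMRC2 EV cells, and 7.69 and 4.20 in UMRC2 FoxO3 cells. Its EV cells rose with 4OHT and its FoxO3 cells dropped to or near the floor (-4.58 ± 0.97, adjusted p = 0.0185). EV rises of at least 2-fold in a line also entered TNFRSF10A-DT (-4.08, with 2.20 in RCC4 EV cells), PYCR3 (-3.26, with 2.09 in UMRC2 EV cells), ARHGAP33 (-3.83, with 2.77 in RCC4 EV cells) and EMX2OS (-3.56, with 2.67 in RCC4 EV cells). For ARHGAP33 and EMX2OS another bright probe set of the gene had the opposite sign. P2RY2 missed the threshold without the UMRC2 EV or UMRC2 FoxO3 pair (adjusted p = 0.0769 to 0.121). TNFRSF10A-DT lost its call without the RCC4 EV, RCC4 FoxO3 or UMRC2 EV pair (adjusted p = 0.0626 to 0.113). PYCR3 no longer passed without the RCC4 EV, RCC4 FoxO3 or UMRC2 EV pair (adjusted p = 0.0594 to 0.133). EMX2OS fell short of the threshold without the RCC4 EV, RCC4 FoxO3 or UMRC2 FoxO3 pair (adjusted p = 0.0604 to 0.163), with a change of -2.16 without RCC4 EV. PXN-AS1 missed the threshold without the UMRC2 EV pair (adjusted p = 0.0503). ARHGAP33 gave -1.73 (adjusted p = 0.0739, not called), EMX2OS gave -1.69 (adjusted p = 0.114, not called) and PAGR1 gave -1.94 (still called) when probe sets were averaged. PYCR3 was not called without the replicate block (adjusted p = 0.0816).

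The FoxO1 responses of the same lines share the EV arrays, so they are given beside those of FoxO3 and compared directly, FoxO3 against FoxO1. In that direct test 310 genes were higher (2.17% of those tested) and 521 lower (3.65%). The ESR1 probe sets that read the fusion had a median of 9.22 and 8.74 in RCC4 FoxO1 cells and 12.29 and 11.91 in UMRC2 FoxO1 cells, lower than in the FoxO3 cells of the same line, so isoform and amount of fusion cannot be told apart. PIK3IP1 changed by 4.39 in RCC4 and 4.76 in UMRC2 with FoxO3 and by -0.14 in RCC4 and 1.58 in UMRC2 with FoxO1, a difference of 3.85 ± 0.42 (adjusted p = 0.00863). TPPP had 2.55 in RCC4 and 3.59 in UMRC2 with FoxO1, a difference of 4.29 ± 0.55 (adjusted p = 0.0123), and SLC40A1 2.81 in RCC4 and 4.18 in UMRC2, a difference of 2.39 ± 0.50 (adjusted p = 0.0373).

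Proliferation and lipid genes were among those lower with FoxO3 than with FoxO1. Of 40 G2/M genes 30 were lower in the direct test, with a FoxO1 median of 0.03, and of 39 G1/S genes 12, with a FoxO1 median of -0.47. CDC20 gave 0.10 in RCC4 and -0.33 in UMRC2 with FoxO1, a difference of -2.29 ± 0.16 (adjusted p = 0.00563). VEGFA gave -0.29 in RCC4 and -0.83 in UMRC2, a difference of -2.30 ± 0.22 (adjusted p = 0.00818), and SQLE -0.31 in RCC4 and -0.57 in UMRC2, a difference of -1.48 ± 0.14 (adjusted p = 0.00749). MXI1 gave 0.09 in RCC4 and -0.14 in UMRC2 with FoxO1, a difference of 1.38 ± 0.22 (adjusted p = 0.0224).

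Other genes did not pass the direct test. CLTRN gave 4.43 in RCC4 and 5.54 in UMRC2 with FoxO1, a difference of 0.77 ± 0.38 (adjusted p = 0.3). CCND1 gave -1.72 in RCC4 and -2.26 in UMRC2, a difference of -0.59 ± 0.24 (adjusted p = 0.211), and MYC -1.78 in RCC4 and -2.14 in UMRC2, a difference of -0.52 ± 0.36 (adjusted p = 0.473). TNFSF10 gave 3.44 in RCC4 and 1.64 in UMRC2, a difference of 0.74 ± 0.55 (adjusted p = 0.505).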

How the data were processed

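Total RNA from 12 cultures was read on Affymetrix U133 Plus 2.0 arrays, 1 per culture. The authors deposited linear intensity values per probe set, made with MAS5 per the submitters' processing notes; the version and scaling target are not given in the sources used here. From these, 62 control probe sets were left out and the arrays were quantile-normalised, floored at the 20th percentile (intensity 18.4) and taken to log2. Of the other probe sets 41091 had 1 gene symbol in the platform annotation, 1801 several and 11721 none, and 41037 of the first matched RefSeq. The probe set with the highest mean stood for a gene, and 14282 of 19775 genes reached the array median (intensity 101.5) in at least 2 arrays.

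The responses of the 6 pairs, 4OHT minus vehicle, were fitted with limma 3.58.1 in R 4.3.3 on construct and cell line. The fit had 2 residual and 5.43 prior degrees of freedom (trend in eBayes), with Benjamini-Hochberg adjustment at 0.05. Cell line is the replicate block, since each line supplied its own EV, FoxO1 and FoxO3 cells. In the fit of all 6 pairs the FoxO1 pairs enter for the shared spread only. With an EV or FoxO3 pair left out, the change itself also depends on the FoxO1 pairs, through the difference between the lines. Nothing says that cultures were repeated, so p-values measure the spread between these samples. The rule for naming genes took the 15 largest called changes each way, the 4 largest changes of each list, a fixed set of FoxO genes and targets, the 5 largest opposite changes of the lines each way, and the 5 genes on each side of the threshold. Other list members named, and the genes whose promoters are printed, were chosen after their values were seen. Members and lists were chosen with earlier results of these data known. Data were simulated for this comparison on 14282 genes, 200 of them changed, with independent noise drawn from the fitted prior variance. There the fit recovered 8.2% of the genes given a log2 change of 1 and 47.8% at a log2 change of 2, and 5.76% of its calls were false. In the real arrays 16.6% of genes were called and the RCC4 FoxO3 pair spans 2 signal levels, so these rates need not hold for them. Alternatives covered scaling, floor, filter, prior variance, probe set choice, the block and each pair left out.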

Additional observations from a re-analysis of the deposited data

Results flagged for a closer look

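The genes here moved in opposite directions in the 2 lines, each with 1 pair per line, so the difference between the lines was not tested. FAM178B changed by 3.03 in RCC4 and -4.33 in UMRC2, CFAP65 by 2.94 and -3.91, PVALB by 3.01 and -2.94, CFAP157 by 3.34 and -2.72, and KCNA6 by 2.69 and -4.45. In the other direction, CSPG4P5 changed by -4.23 in RCC4 and 3.22 in UMRC2, LILRA4 by -3.21 and 4.25, MYL10 by -5.72 and 2.90, LINC00928 by -2.75 and 3.16, and LINC02504 by -2.75 and 3.31.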

How the results depend on the processing

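The count of called genes (2377, of which 944 higher and 1433 lower) was 579 (126 higher and 453 lower) on the values as deposited, 0 (0 and 0) without the filter on dim genes and 0 (0 and 0) with a constant prior variance, where the smallest adjusted p was 0.0764 and 0.0724. With 1 pair left out it ranged from 1156 to 2241 (484 to 894 higher and 672 to 1347 lower). Without the replicate block of cell line it was 2144 (835 higher and 1309 lower), and with the mean of all probe sets 1641 (638 and 1003). No called gene that the text's rule names changed sign in the settings it was tested in (up to 17 of them), but 31 of these 127 genes lost their call on the values as deposited and 25 of 124 with the mean of all probe sets. Signs turned for genes that were not called. On the values as deposited these were RPL30 (-0.28), CD79A (-0.26), PECAM1 (-0.36), FOXO6 (-0.088), FOXO3 (-0.36) and CDKN1A (-0.086). With a common median they were PECAM1 (-0.064) and FOXO3 (-0.067), and with the mean of probe sets RPS6 (0.0010) and CD79A (-0.019). With 1 pair left out, WT1 ranged from -2.92 to 0.025, CD3E from -0.000165 to 0.957, CD79A from -0.45 to 0.58, PECAM1 from -0.37 to 0.39, FOXO3 from -0.73 to 0.76 and CDKN1A from -0.32 to 0.87. The cause was not tested. One array per culture, and 2 lines, limit the precision.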
